A study of Sus scrofa domesticus with 11 samples.

Results

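Long non-coding RNA (lncRNA) genes make transcripts that are spliced and polyadenylated much like messenger RNA but are not known to be translated. Some regulate the gene beside them, some host small nucleolar RNAs in their introns, and for most no role is known. In liver they are usually far less abundant than the messages for secreted proteins and enzymes. The genes described here are the rows of the deposited table whose biotype is lncRNA and whose mean raw read count over all 11 libraries was at least 100. There were 147 of them among 3670 lncRNA rows and 22029 genes, or 4.01% of the lncRNA rows. They were chosen by their mean count over both groups, so their abundance is a description. Treatment labels were not used, but a gene high in 1 group can reach the minimum through that group: 127 had a mean count of at least 100 in both groups, 8 in SEFA-6179 only and 12 in MCT only.

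The libraries came from livers of preterm Yorkshire piglets on parenteral nutrition, taken on day of life 15. The treated group, SEFA-6179, had received a compound known by its code name at 48 mg/kg (n = 5), and the control group MCT had received the isovolumetric vehicle at 3 ml/kg (n = 6). All animals shared the preterm birth and the parenteral feeding. The labels give no sex, litter or batch, and each library was taken as 1 animal.

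Total counts ran from 15974977 to 23416071 per library. All 12 hepatocyte markers looked up were in the table, with a summed level of 80395 to 204032 CPM (each count relative to the TMM-scaled size of its library), so the tissue carried the markers of its label. Libraries differed in other ways. The summed macrophage markers were lowest in replicate 4 of SEFA-6179 (62.6 CPM) and next lowest in replicate 5 of MCT (212 CPM). Other summed marker lists had overlapping ranges: bile duct 35.0 to 72.4 CPM in SEFA-6179 and 44.8 to 139 in MCT, stellate cell 485 to 777 and 629 to 1004, erythroid 224 to 493.1 and 106 to 414. EIF1AY, a gene on the Y chromosome, was counted in 6 libraries (2 SEFA-6179, 4 MCT) and was at 0 in the other 5. The part of these differences in the results below was not tested, except where values without a library are given. In a piece of tissue, fewer cells of a type and less RNA per cell cannot be told apart.

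Counts of the 147 genes were spread over a wide range but sat mostly near the minimum. Their mean count ran from 101 to 70542 with a median of 198. The genes just inside the minimum were ENSSSCG00000043563 at 101.3, ENSSSCG00000042151 at 101.6 and ENSSSCG00000042722 at 101.7 counts, and the 3 lncRNA rows just outside it had 97.3, 98.5 and 99.4. In FPKM, which divides by transcript length, the mean level ran from 0.482 to 1564 with a median of 2.85, and 126 of the 147 were under 10. The 9279 protein-coding genes with a mean count of at least 100 had a median of 5.62 FPKM. At like counts, from 138 to 359, the medians were close, at 2.63 FPKM for 73 of the lncRNA genes and 2.69 FPKM for 3062 protein-coding genes. All 147 passed the filter on low counts, as did 704 lncRNA rows in all. They lay on 18 chromosomes, with 5 on X, and 11 were on 6 unplaced contigs.

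A symbol was available for 19 of the 147, 1 from the deposited table (TMEM80) and 18 matched to a reference list on the identifier, and the other 128 have an identifier only. Of these 19 symbols, 17 belong to a protein-coding gene in the RefSeq table of the pig assembly Sscrofa11.1 and 2 are absent from it. The lncRNA label of those 17 rows therefore differs between the annotations. None of the 19 symbols appears on a second row of the table. A lookup of 40 names of well-known lncRNAs, among them MALAT1, NEAT1 and several SNHG genes, found 0 rows under those symbols, so no level is given for any of them.

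Between the treatments, 0 of the 147 genes passed an adjusted p of 0.05 in edgeR (quasi-likelihood test, Benjamini-Hochberg over all 13671 genes tested), where 30 genes, 0.219%, passed. The smallest adjusted p was 0.0692. At an unadjusted p under 0.05 there were 29 of the 147 (19.7%), 16 higher and 13 lower in SEFA-6179, against 10.8% of all genes tested (5.24% higher, 5.52% lower) and 11.65% of the protein-coding genes with a mean count of at least 100. Without MCT replicate 5 and SEFA-6179 replicate 4 there were 26 (13 in each direction). The share of all genes in that fit is not given here, so the 26 cannot be set against a background. Limma with voom and sample weights called 0, against 0.454% of all genes, with 34 (of 147) at an unadjusted p under 0.05, against 14.2% of all genes. DESeq2 called 6 of the 147 (4 lower, 2 higher), against 1.6% of the 15581 genes it gave an adjusted p. The authors' deposited table holds 7 of the 147 at an adjusted p under 0.05, 4 lower and 3 higher, against 1.16% of its 22029 genes, and these include all 6 of the DESeq2 calls. The 22029 are all rows, also those with few or no counts, so 1.16% is not a share of genes of like count. Several of the genes counted in this paragraph reached the count minimum in 1 group only. Among them are ENSSSCG00000042151, with mean counts of 123 in SEFA-6179 and 83.5 in MCT, and ENSSSCG00000043011, with 36.4 and 176. The shares of the 147 are therefore not independent of the way the genes were chosen.

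Most of the 147 differed little between the groups. The log2 difference, SEFA-6179 over MCT, lay within 0.5 of 0 for 105 genes, and its median was 0.04 against -0.0015 over all genes tested. It was above 0 for 86 genes (58.5%), against 49.8% of all genes tested. A log2 difference of at least 1 in either direction was seen for 15 genes (10.2%; 8 higher, 7 lower), against 3.86% of all genes tested. Of these 15, 8 reached the count minimum in 1 group only, so the count is not independent of the way the genes were chosen. ENSSSCG00000043011, ENSSSCG00000045069 and ENSSSCG00000041596, described below, are of this kind, with mean counts of 36.4, 70.2 and 78 in SEFA-6179 and 176, 221 and 298 in MCT. The spread between libraries was also wider. The median coefficient of variation of CPM over the 11 libraries was 31.1% for the 147 and 21.6% for the protein-coding genes with a mean count of at least 100. Between the quartiles of the members' counts (138 to 359), it was 30.02% for 73 lncRNA genes and 22.7% for 3062 protein-coding genes of like count. The steadiest was ENSSSCG00000044261, near BUD23, at 6.22%, and the least steady ENSSSCG00000048719 at 147%.

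**Figure D1:**
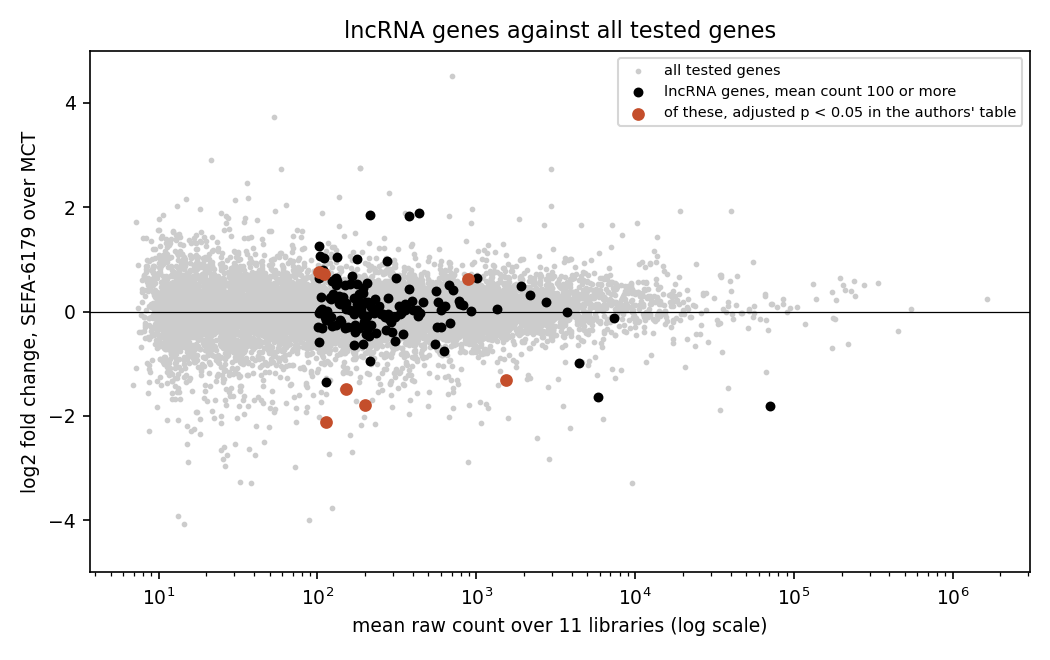
Log2 fold change of SEFA-6179 (n = 5) over MCT (n = 6) against the mean raw count over 11 libraries (log scale), for all 13671 tested genes (grey), the 147 lncRNA genes with a mean count of at least 100 (black) and the 7 of these under an adjusted p of 0.05 in the authors' deposited table (orange). Most black points lie within 0.5 of 0, and the point at the far right is ENSSSCG00000050649, at a mean count of 70542.

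The most abundant of the lncRNA genes was ENSSSCG00000050649, on chromosome 2 (1381838 to 1384446, minus strand), with a mean of 1564 FPKM. No symbol is paired with this identifier in the sources used here. Its SEFA-6179 libraries held 1543, 2484, 1554, 867 and 992 CPM, and its MCT libraries ran from 978 to 12142 with a median of 5088. MCT replicates 1 to 4 lay above every SEFA-6179 library, and MCT replicates 5 and 6 lay among them. The log2 difference was -1.81 ± 0.54 (SE), 3.51-fold lower in SEFA-6179, with an adjusted p of 0.220 by edgeR's quasi-likelihood test, and 0.0524 in the authors' deposited table. This row alone took 0.0796 to 0.227% of all counts in SEFA-6179 and 0.105 to 1.201% in MCT. Its nearest protein-coding gene, ENSSSCG00000038364, 28888 bases away on the other strand, had a log2 difference of 0.03. The other 146 together took 0.317 to 0.342% of the counts in SEFA-6179 and 0.319 to 0.510% in MCT (two-sided exact permutation test over libraries, p = 0.0519). The 146 include the genes that reached the count minimum in 1 group only, so this test is not independent of the way they were chosen. Most of the gap came from 5 rows described below, ENSSSCG00000048719 and the 4 on contigs with rRNA rows. Without them the remaining 141 took 0.284 to 0.309% in SEFA-6179 and 0.263 to 0.340% in MCT. This is a description only, since the 5 rows were picked after they were seen to be lower in SEFA-6179. MCT replicate 5 went from the highest library, at 0.510%, to the lowest, at 0.263%.

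Of the 4 lower genes in the authors' deposited table, a pair lay on the minus strand of chromosome 7, where the bodies of ENSSSCG00000043011 (16725970 to 16892383) and ENSSSCG00000045069 (16885827 to 16891770) share 5944 bases. The shared stretch is the whole body of ENSSSCG00000045069, which lies inside the longer row. How reads in that stretch were assigned is not stated, so the pair is not taken as independent. ENSSSCG00000045069 stood at 3.75, 6.41, 3.62, 3.45 and 2.83 CPM in SEFA-6179 and at 6.67 to 22.5 CPM in MCT, with a median of 8.47. Its groups did not overlap, and the log2 difference was -1.49 ± 0.35 (SE; edgeR adjusted p = 0.113; authors' deposited table, -1.50 and 0.00322). ENSSSCG00000043011 stood at 2.27, 3.81, 1.24, 1.55 and 1.60 CPM in SEFA-6179 and at 2.52 to 26.1 CPM in MCT, with a median of 5.28. Here the groups overlapped, and MCT replicates 1 and 5 were highest for both genes. The log2 difference was -2.13 ± 0.63 (SE; edgeR adjusted p = 0.224; authors' deposited table, -2.14 and 0.00660), and without MCT replicate 5 it was -1.47. CDKAL1, a tRNA-modifying enzyme and the nearest protein-coding gene of the longer row at 40917 bases, had a log2 difference of -0.17.

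On the higher side, the authors' deposited table called ENSSSCG00000041717, ENSSSCG00000049071 and ENSSSCG00000042151. ENSSSCG00000041717, on X (84903306 to 84922555, minus strand), stood at 6.81, 8.95, 6.31, 8.75 and 7.08 CPM in SEFA-6179 and at 3.48 to 5.74 CPM in MCT, with a median of 4.57. No MCT library reached the lowest SEFA-6179 library. The log2 difference was 0.73 ± 0.19 (SE; edgeR adjusted p = 0.155; authors' deposited table, 0.73 and 0.0294), a 1.66-fold higher level, while FAM199X, 14592 bases away, had a log2 difference of 0.19.

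ENSSSCG00000042151, on chromosome 13 (100436161 to 100442052, minus strand), stood at 7.49, 6.99, 5.07, 8.75 and 7.33 CPM in SEFA-6179 and at 3.41 to 5.33 CPM in MCT, with a median of 3.89. Of SEFA-6179, replicate 3 alone lay inside the MCT range. This gave a log2 difference of 0.75 ± 0.21 (SE; edgeR adjusted p = 0.172; authors' deposited table, 0.75 and 0.0391), and PPM1L, a protein phosphatase gene that starts 1158 bases away and points the other way, had 0.03. This gene sits just inside the count minimum.

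ENSSSCG00000049071, on chromosome 6 (91048806 to 91113619, minus strand), stood at 42.0, 62.6, 62.5, 66.7 and 62.7 CPM in SEFA-6179 and at 27.7 to 52.2 CPM in MCT, with a median of 38.4. All SEFA-6179 libraries but replicate 1 lay above all 6 of MCT. These values gave a log2 difference of 0.62 ± 0.17 (SE; edgeR adjusted p = 0.161; authors' deposited table, 0.62 and 0.0498), and GJA4, a gap junction protein of arterial endothelium 641 bases away, had -0.07.

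Counting groups that did not overlap, 2 of the 147 lay wholly higher in SEFA-6179, against 0.673% of all genes tested, and 2 lay wholly lower, against 0.819%. The lower genes were ENSSSCG00000045069 and ENSSSCG00000041596, and the higher ones ENSSSCG00000041717 and ENSSSCG00000036265. Each of them reached the count minimum in 1 group only, so these counts are not independent of the way the genes were chosen. Mean counts in SEFA-6179 and MCT were 132 and 91.3 for ENSSSCG00000041717, and 145 and 81 for ENSSSCG00000036265. ENSSSCG00000036265, on chromosome 9, falls outside the rule for named genes and was chosen after its values were seen. It stood at 6.64, 6.07, 8.01, 9.41 and 11.8 CPM in SEFA-6179 and at 1.34 to 5.95 CPM in MCT, with a median of 4.74. Its log2 difference was 1.02 ± 0.32 (SE; edgeR adjusted p = 0.240), against 0.30 for THY1, a surface glycoprotein of fibroblasts and lymphocytes 70607 bases away.

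**Figure D2:**
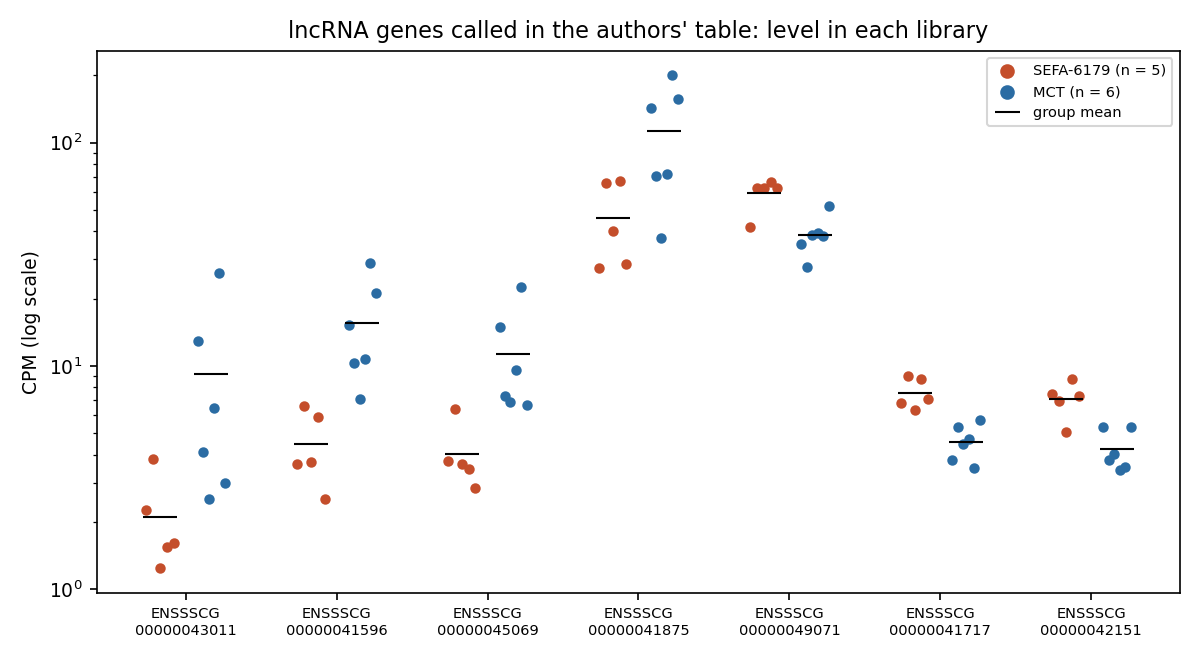
Level in CPM (log scale) of the 7 lncRNA genes with an adjusted p under 0.05 in the authors' deposited table, 1 point per library, SEFA-6179 in orange (n = 5) and MCT in blue (n = 6), with a black bar at each group mean, ordered by log2 fold change. The groups do not overlap for ENSSSCG00000041596, ENSSSCG00000045069 and ENSSSCG00000041717, and overlap for the other 4.

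Ribosomal RNA (rRNA) genes are repeated in tandem and give the most abundant RNA of a cell, most of which library preparation usually leaves out. Of the lncRNA genes, 4 lay on the 2 unplaced contigs that also hold rRNA rows, AEMK02000489.1 with ENSSSCG00000041875, ENSSSCG00000041461 and ENSSSCG00000045913, and AEMK02000695.1 with ENSSSCG00000041596. All 4 had log2 differences below 0, from -1.80 to -0.94, and all 4 were among the 13 lower genes at an unadjusted p under 0.05. The bodies of ENSSSCG00000041875 and ENSSSCG00000041461 overlap each other on opposite strands. ENSSSCG00000041461 also overlaps RN18S, the row for 18S rRNA, and ENSSSCG00000041875 the rRNA row ENSSSCG00000043761. No source used here states whether the counting used strand, so reads of overlapping rows on opposite strands cannot be told apart.

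ENSSSCG00000041596 (11543 to 13129, minus strand) had the smallest p of the 147. It stood at 3.63, 6.59, 3.72, 5.89 and 2.53 CPM in SEFA-6179 and at 7.07 to 28.8 CPM in MCT, with a median of 13.0. Every MCT library was above every SEFA-6179 library. The log2 difference was -1.80 ± 0.37 (SE), 3.47-fold lower, with an edgeR adjusted p of 0.0692 and 1.99e-04 in the authors' deposited table. It was -1.53 without MCT replicate 5.

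ENSSSCG00000041875 (1845 to 38799, plus strand) stood at 27.3, 66.1, 40.1, 67.0 and 28.5 CPM in SEFA-6179 and at 37.3 to 200 CPM in MCT, with a median of 107. The groups overlapped through MCT replicate 3. In the fit, the log2 difference was -1.30 ± 0.42 (SE; edgeR adjusted p = 0.282; authors' deposited table, 0.0344), and -1.07 without MCT replicate 5. ENSSSCG00000041461 ran from 86.0 to 259 CPM in SEFA-6179 and from 123 to 692 CPM in MCT, a log2 difference of -0.98 ± 0.40 (SE) that was -0.56 without MCT replicate 5. ENSSSCG00000045913 ran from 2.22 to 11.3 CPM and from 6.48 to 23.8 CPM, a log2 difference of -0.94 ± 0.43 (SE), and -0.79 without that library.

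RN18S stood at 491 to 823 CPM in SEFA-6179 and at 799 to 3403 CPM in MCT, highest in MCT replicate 5 (3403 CPM) and MCT replicate 6 (1590 CPM). Summed, the rRNA rows were at 878 ± 214 CPM (SD, n = 5) and 1827 ± 1083 CPM (SD, n = 6; two-sided exact permutation test, p = 0.0130). RN18S made up most of this sum, its ranges overlapped, and no single rRNA row passed edgeR's test (RN18S, adjusted p = 0.283; ENSSSCG00000050765, 0.372; ENSSSCG00000043761, 0.539). The permutation test of the rRNA sum was not among those planned. The 4 lncRNA rows together came to 21.7 to 49.8% of the RN18S level in each library, with a mean of 30.01% in SEFA-6179 and 32.1% in MCT. The part of rRNA carry-over in their difference was not tested. Without the 4, the remaining 143 held 16 higher and 9 lower genes at an unadjusted p under 0.05 (5.24% and 5.52% of all genes), and a smallest adjusted p of 0.113 (edgeR). This is a description only, since the 4 were set aside after they were seen to be among the 13 lower genes. The 143 also include genes that reached the count minimum in 1 group only.

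The second most abundant of the lncRNA genes, ENSSSCG00000048719 on chromosome 4 (53952716 to 53953839, minus strand; mean 303 FPKM), lay 652440 bases from any protein-coding row. It stood at 224, 93.1, 142, 123 and 153 CPM in SEFA-6179 and at 23.8 to 1691 CPM in MCT, with a median of 260. The highest was MCT replicate 5 and the lowest MCT replicate 3. A mitochondrial rRNA row, ENSSSCG00000018061, had its extremes in the same libraries, at 2019 CPM in MCT replicate 5 and 41.4 CPM in MCT replicate 3. The ratio of the lncRNA row to it stayed between 0.552 and 0.873 over the 11 libraries, while the lncRNA row itself ranged 70.9-fold. Its ratio to the other mitochondrial rRNA row, ENSSSCG00000018063, ran from 0.448 to 1.13, with means of 0.550 in SEFA-6179 and 0.870 in MCT. Counts alone cannot show whether reads were shared between them. Its log2 difference was -1.64 ± 0.82 (SE; edgeR adjusted p = 0.505), and -0.51 without MCT replicate 5.

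**Figure D3:**
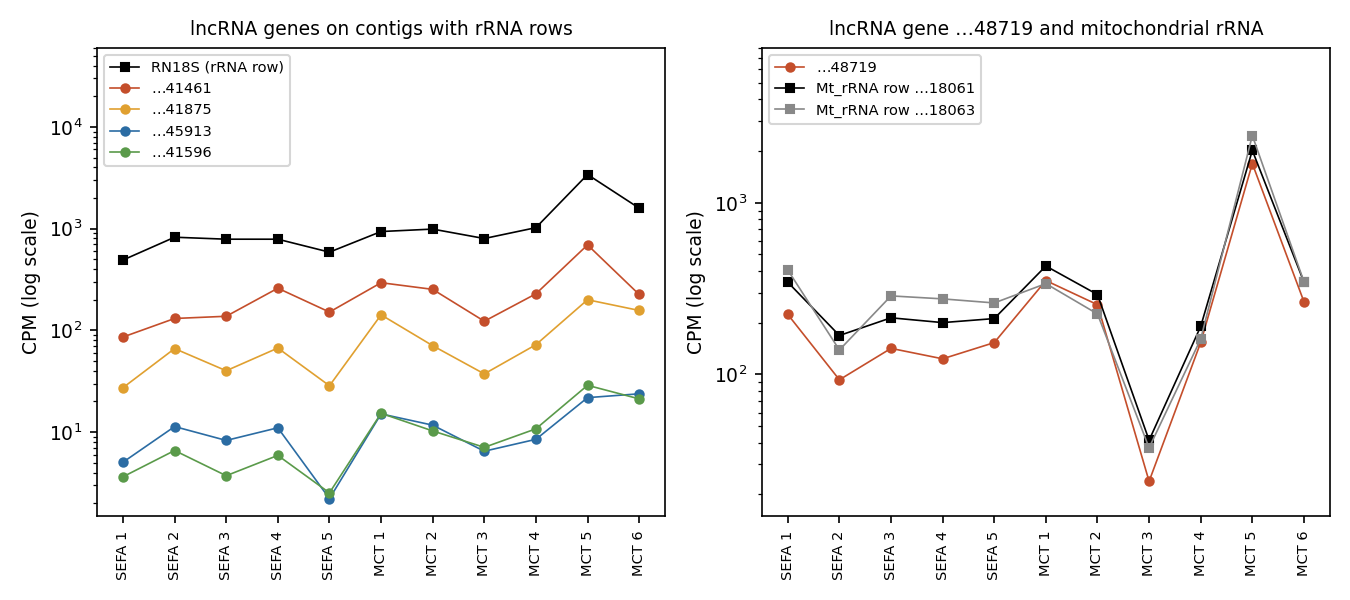
Level in CPM (log scale) in each of the 11 libraries. Left, the 4 lncRNA genes on the contigs with rRNA rows (circles, last 5 digits of the identifier) and RN18S (squares). Right, ENSSSCG00000048719 (circles) and the 2 mitochondrial rRNA rows (squares). Lines join the values of a row and carry no order in time; MCT replicate 5 is the highest library for RN18S and for every row on the right.

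On X, ENSSSCG00000044599 (59283918 to 59286152) and ENSSSCG00000049776 (59288879 to 59293232), both on the minus strand and nearest to CHIC1, were counted in the same 5 libraries and in no other. ENSSSCG00000044599 stood at 0, 44.2, 56.9, 0 and 68.1 CPM in SEFA-6179. In MCT it was 36.3 CPM in replicate 2, 20.7 CPM in replicate 5 and 0 in the other 4. ENSSSCG00000049776 stood at 0, 29.3, 34.8, 0 and 31.0 CPM in SEFA-6179 and, in MCT, at 22.7 CPM in replicate 2, 8.71 CPM in replicate 5 and 0 elsewhere. The 6 libraries at 0 were exactly those in which EIF1AY, on the Y chromosome, was counted, at 19.2 to 24.5 CPM. A count of 0 allows up to 3 counts.

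The log2 differences of this X pair, 1.83 ± 1.84 and 1.85 ± 1.76 (SE; edgeR adjusted p = 0.775 and 0.763), were among the 5 largest on the higher side. With the EIF1AY level as a covariate they were 0.97 and 1.00 (edgeR adjusted p = 0.343 and 0.422). CHIC1, 53135 bases from the nearer of the pair, had -0.24. EIF1AY was at 0 in 3 of 5 SEFA-6179 libraries and 2 of 6 MCT libraries, so the groups differed in this respect.

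Every one of the 147 has a protein-coding gene on the same chromosome or contig, and none overlaps it. Over the whole table, 0 of 3640 lncRNA rows with a neighbour overlap a protein-coding row, whereas 35.7% of protein-coding rows overlap another. The lack of overlap is thus shared by the lncRNA rows of the table and is not particular to the 147. Its source was not tested. The gap between bodies ran from 12 to 652440 bases with a median of 3571, and was at most 1000 bases for 49 genes, 10000 for 87 and 100000 for 136. The lncRNA rows below the count minimum had a median gap of 17744 bases. By orientation, 60 lay on the strand of their neighbour, 63 on the other strand, and 24 more were divergent, meaning on opposite strands, pointing away, with start sites within 2000 bases. The divergent share was 16.3%, against 11.2% of the lncRNA rows below the minimum. The 147 have 138 distinct neighbours, 8 of them shared by more than 1 lncRNA gene.

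Of the 24 divergent genes, 18 had log2 differences above 0, with a median of 0.14 and a range of -1.30 to 1.25. The 60 on the same strand split 32 above and 28 below 0 with a median of 0.04. The 63 others split 36 and 27, also with a median of 0.04. At an unadjusted p under 0.05 there were 5 higher and 1 lower among the divergent genes, 3 and 5 among those on the same strand, and 8 and 7 among the others, against 5.24% higher and 5.52% lower of all genes. Whether the orientations differ was not tested.

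The ratio of each lncRNA gene to its neighbour was tested with limma over all 11184 gene pairs, of which 137 hold one of the 147. The others have a neighbour too low to test. No pair of any kind passed an adjusted p of 0.05, so the background was 0% and the count 0. At an unadjusted p under 0.05 there were 16 of the 137 ratios, against 10.9% of all pairs. The smallest adjusted p among the 137, 0.0544, was for ENSSSCG00000051428 and AKR1C2.

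ENSSSCG00000051428, on chromosome 10 (65559698 to 65572893, plus strand), lies 3571 bases from AKR1C2, an aldo-keto reductase of steroid metabolism on the same strand; this and the next pairs were chosen after their values were seen. The lncRNA gene stood at 163, 306, 94.7, 277 and 155 CPM in SEFA-6179 and at 171 to 240 CPM in MCT, with a median of 193. AKR1C2 stood at 400, 1150, 130, 804 and 748 CPM in SEFA-6179 and at 140 to 313 CPM in MCT. AKR1C2 thus exceeded all of MCT in every SEFA-6179 library but replicate 3, while the lncRNA gene lay on both sides of MCT. Their log2 differences were -0.01 ± 0.26 and 1.67 ± 0.43 (SE; edgeR adjusted p = 0.996 and 0.161). The log2 ratio was -1.52 ± 0.29 (SE).

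CRP, the acute phase protein made by hepatocytes, lies 367 bases from ENSSSCG00000049824 (chromosome 4, 90805603 to 90810860, plus strand), on the same strand. The lncRNA gene stood at 26.2, 4.27, 101, 24.4 and 36.1 CPM in SEFA-6179 and at 1.52 to 25.3 CPM in MCT, with a median of 4.35. CRP itself stood at 1204, 430, 4707, 1019 and 1179 CPM in SEFA-6179 and at 146 to 959 CPM in MCT, with a median of 329. SEFA-6179 replicate 3 was the highest library for both and MCT replicate 6 the lowest. The log2 differences were 1.89 ± 0.87 and 1.93 ± 0.65 (SE; edgeR adjusted p = 0.470 and 0.300), and without SEFA-6179 replicate 3 they were 1.13 and 1.10.

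**Figure D4:**
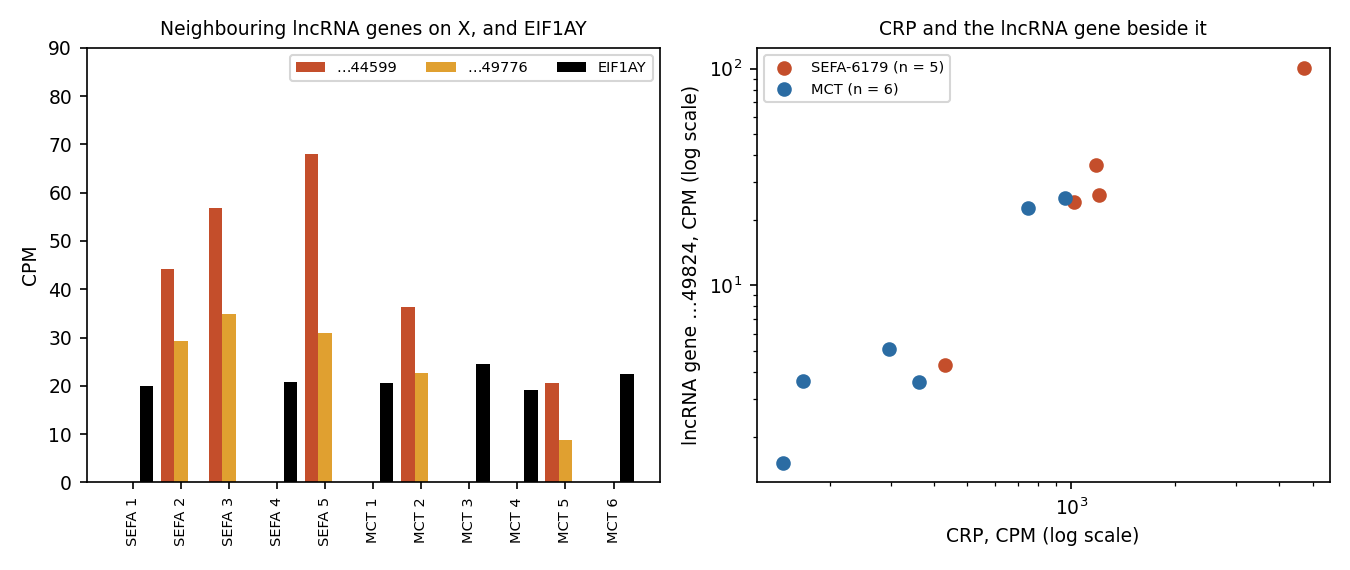
Left, CPM of the X-linked ENSSSCG00000044599 and ENSSSCG00000049776 and of EIF1AY as bars from 0 in each of the 11 libraries; the lncRNA genes are at 0 wherever EIF1AY is not. Right, ENSSSCG00000049824 against CRP, both in CPM on log scales, 1 point per library, SEFA-6179 in orange (n = 5) and MCT in blue (n = 6); the point at the top right is SEFA-6179 replicate 3, with 101 and 4707 CPM.

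KLF15, a transcription factor of amino acid breakdown and fasting glucose production, lies between a pair of the lncRNA genes on chromosome 7. ENSSSCG00000045171, divergent from it at 274 bases, stood at 4.60, 3.41, 13.96, 9.11 and 9.86 CPM in SEFA-6179 and at 0.449 to 8.14 CPM in MCT, with a median of 3.23. ENSSSCG00000048394, 11597 bases beyond its other end, stood at 7.38, 3.52, 12.3, 12.2 and 15.4 CPM and at 2.47 to 7.96 CPM, with a median of 4.47. Replicates 3, 4 and 5 of SEFA-6179 lay above all of MCT for both. Their log2 differences were 1.25 ± 0.58 and 1.05 ± 0.37 (SE; edgeR adjusted p = 0.467 and 0.304), and KLF15 itself had 0.72 ± 0.17 (SE; adjusted p = 0.113). Both lncRNA genes reached the count minimum in SEFA-6179 only, with mean counts of 145 and 177 there and 66.5 and 97.2 in MCT. Their higher level in SEFA-6179 is therefore not independent of the way the genes were chosen.

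GLRX5, a mitochondrial glutaredoxin of iron-sulfur cluster assembly, was the only neighbour of the 147 that passed edgeR's test: it rose by a log2 of 0.98 ± 0.18 (SE, adjusted p = 0.0478). In DESeq2, KLF15 (adjusted p = 0.0145), RPS28 (0.0171) and AKR1C2 (0.00392) passed as well. The divergent lncRNA gene 104 bases from it, ENSSSCG00000048556, which overlaps a small Cajal body RNA on its own strand, stood at 5.90, 19.99, 12.1, 19.4 and 11.03 CPM in SEFA-6179 and at 5.67 to 13.8 CPM in MCT. SEFA-6179 replicates 2 and 4 were above all of MCT and replicate 1 near its bottom. Its log2 difference was 0.55 ± 0.31 (SE, edgeR adjusted p = 0.543), and the log2 ratio to GLRX5 was -0.45 ± 0.25 (SE, limma adjusted p = 0.535).

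FOXA2, a transcription factor of the hepatocyte lineage, had a log2 difference of 0.01 ± 0.22 (SE). ENSSSCG00000049934, 2095 bases from it on the same strand, stood at 9.31, 26.1, 4.91, 15.2 and 11.9 CPM in SEFA-6179 and at 3.68 to 10.6 CPM in MCT. SEFA-6179 replicates 2, 4 and 5 lay above all of MCT. Its log2 difference was 1.00 ± 0.37 (SE, edgeR adjusted p = 0.320) and the log2 ratio to FOXA2 0.84 ± 0.28 (SE, limma adjusted p = 0.264). ENSSSCG00000051070, on chromosome 3, had 1.06 ± 0.58 (SE, edgeR adjusted p = 0.539), with 4.44 to 11.4 CPM in SEFA-6179 and 0.130 to 6.61 CPM in MCT. The 0.130 CPM was MCT replicate 2, and the other MCT libraries were at 2.18 CPM or more. This gene reached the count minimum in SEFA-6179 only, with mean counts of 140 there and 72.5 in MCT. Its difference is therefore not independent of the way the genes were chosen. ENSSSCG00000044394, 2756 bases from CYP2E1, the ethanol-oxidising cytochrome P450, had 0.64 ± 0.24 (SE, edgeR adjusted p = 0.321), with 17.3 to 32.0 CPM in SEFA-6179 and 8.31 to 19.6 CPM in MCT.

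**Figure D5:**
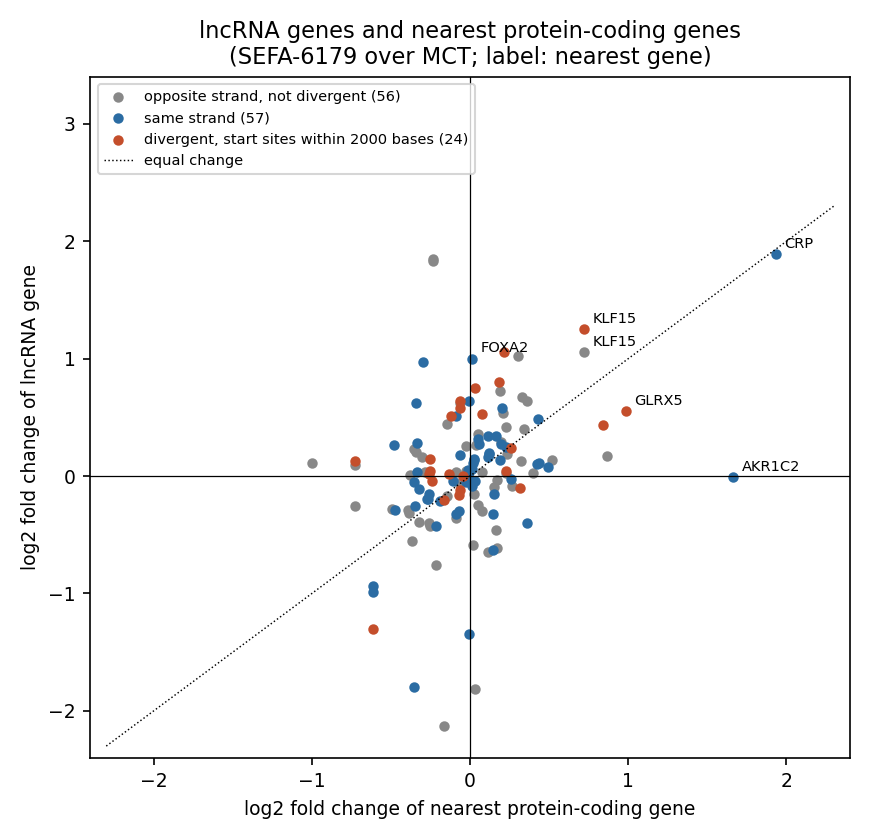
Log2 fold change (SEFA-6179 over MCT) of 137 lncRNA genes against that of the nearest protein-coding gene, coloured by orientation (56 opposite, 57 same, 24 divergent); labels name the nearest gene and the dotted line marks equal change. The points at CRP lie near the line at 1.93 and 1.89, and the point at AKR1C2 lies at 1.67 and -0.01.

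Across the 11 libraries, the correlation of log2 CPM between lncRNA gene and neighbour had a median r of 0.28 over the 137 pairs, against 0.11 over all pairs. It was above 0.8 for 13 of the pairs (9.49%), against 2.16% of all pairs. All pairs include genes of any tested count, so this is not a background of like count. Among the 13, ENSSSCG00000041875 (r = 0.91) and ENSSSCG00000045913 (r = 0.85), on a contig with rRNA rows, share the neighbour ENSSSCG00000032599. ENSSSCG00000048855 with ENSSSCG00000038056 had r = 0.93 and rho = 0.77. These values are descriptions, since both genes of a pair share the library and its scaling. The highest was CRP with ENSSSCG00000049824 (r = 0.96, Spearman's rho = 0.94, and r = 0.93 without the 2 libraries farthest from the CRP median). DECR2, a peroxisomal reductase of fatty acid oxidation, with ENSSSCG00000044588 reached r = 0.92 and rho = 0.91. PEG3, an imprinted zinc finger gene, with ENSSSCG00000041123 reached r = 0.90 and rho = 0.80, and r = 0.74 without 2 libraries. A1CF, a cofactor of apolipoprotein B message editing, with ENSSSCG00000044575 reached r = 0.85, and 0.59 without 2 libraries. The divergent pairs had a median r of 0.18 (24 pairs) and the others 0.29 (113 pairs).

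The log2 differences of the 19 genes with a symbol ran from -0.63 to 0.44, 12 above and 7 below 0, and the smallest adjusted p was 0.283. HDLBP, an RNA-binding protein also called vigilin, was the most counted of them, at 363, 341, 419, 359 and 362 CPM in SEFA-6179 and 328 to 498 CPM in MCT, with a log2 difference of -0.12 ± 0.15 (SE). IER2, an immediate early gene, stood at 24.4, 15.7, 27.7, 28.8 and 14.7 CPM in SEFA-6179 and at 24.0 to 44.6 CPM in MCT, with a log2 difference of -0.63 ± 0.21 (SE, edgeR adjusted p = 0.283). GNG12, a G protein gamma subunit, had -0.46 ± 0.17 (SE, adjusted p = 0.331), and its relative GNG7 had 0.26 ± 0.21.

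Those with a known place in mitochondria were NDUFA7, a subunit of complex I, TIMM13, an import chaperone of the intermembrane space, and LYRM2. NDUFA7 stood at 19.6, 25.8, 24.9, 31.4 and 17.9 CPM in SEFA-6179 and at 11.7 to 25.9 CPM in MCT, a log2 difference of 0.44 ± 0.20 (SE, edgeR adjusted p = 0.464); RPS28, a ribosomal protein 124 bases away, had 0.84. TIMM13 had 0.20 ± 0.21 and LYRM2 0.11 ± 0.22. C18orf32 (0.31 ± 0.18) was the most abundant per length, at 48.1 FPKM. PAIP2B, an inhibitor of poly(A)-binding protein, had -0.30 ± 0.20, TMEM80 0.14 ± 0.28, TBCC, a tubulin folding cofactor, -0.05 ± 0.20, and TMEM18 0.03 ± 0.18.

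Among the 147, 8 rows overlap a small nucleolar or small Cajal body RNA row on the same strand, an arrangement in which the host transcript carries the small RNA, which guides modification of other RNAs. One is ENSSSCG00000041401, which overlaps 2 rows named SNORA73, and another ENSSSCG00000045200, which overlaps 4 such rows including SNORD88B. Their log2 differences ran from -0.21 to 0.55, 4 above and 4 below 0, and 0 of the 8 had an unadjusted p under 0.05 in edgeR. Their median level was 6.46 FPKM.

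The last genes the rule for naming takes are those nearest the count minimum. ENSSSCG00000042722, near CSF1, a growth factor of macrophages, stood at 7.10, 2.71, 5.12, 3.63 and 2.16 CPM in SEFA-6179 and at 2.73 to 16.7 CPM in MCT. MCT replicate 3 was far above the rest, and the log2 difference of -0.58 ± 0.48 (SE) was 0.0025 without it. ENSSSCG00000043563, near NIN, a centrosomal protein, ran from 3.51 to 6.31 CPM and from 3.82 to 10.1 CPM, a log2 difference of -0.29 ± 0.26 (SE). Both genes reached the count minimum in MCT only, with mean counts of 125 and 115 there and 73.4 and 84.6 in SEFA-6179.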

How the data were processed

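Liver RNA of 11 piglets (5 SEFA-6179, 6 MCT) was sequenced. Per the file headers, the authors deposited 1 table with raw counts, FPKM values and a normalized signal per library, with their own log2 fold change, p-value and adjusted p-value per gene. The submitters' processing notes name featureCounts 1.5.0-p3, DESeq2 1.20.0, StringTie 1.3.3b and HISAT2 2.0.5. No source used here gives the genome build, annotation release or strand setting. Coordinates are those of the table.

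The counts were tested with edgeR 4.0.16 (R 4.3.3): filterByExpr with a minimum count of 10, TMM, a robust quasi-likelihood fit without covariates, two-sided, Benjamini-Hochberg over all 13671 genes, threshold 0.05. The same fit was also run on simulated counts in which 200 genes were changed. How many of these it recovered is not given here, so its power is not stated. DESeq2 1.42.0 and limma 3.58.1 (voom) were alternatives. The nearest protein-coding gene had the smallest gap between gene bodies. Log2 CPM ratios (prior count 2) were tested with limma over 11184 pairs. P-values measure only the spread between these libraries. Depth ran from 15974977 to 23416071 counts per library. Intervals beyond SD and SE were not computed, and the limit of 3 counts at a count of 0 covers counting error only.

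The genes and lists were chosen with earlier results of these data known. The rule for named genes took those past the threshold, the 6 smallest p, the 5 largest differences in each direction, the 5 highest FPKM, up to 12 with a symbol by mean count, and the 3 just inside the count minimum. The neighbour of 1 named gene is not reported here. No sequences are printed.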

Additional observations from a re-analysis of the deposited data

Results flagged for a closer look

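In 56 groups of values (28 named genes in 2 treatments), the highest or lowest library was checked for lying far from the rest by Dixon's ratio, where about 1 group in 20, here 2.8, is marked by chance. There were 2. ENSSSCG00000049071 was lowest in SEFA-6179 replicate 1, at 42.0 CPM, with the other 4 at 62.5 to 66.7 CPM. ENSSSCG00000051070 was lowest in MCT replicate 2, at 0.130 CPM, with the other 5 at 2.18 to 6.61 CPM.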

How the results depend on the processing

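The count of 0 of the 147 genes past the threshold held in edgeR with other size factors, no filter, a minimum mean count of 50, without robust estimation and with the EIF1AY level as a covariate, in limma, and in every fit without 1 library (0 to 0). DESeq2 gave 6. With the members' minimum at 50 or 200 there were 243 or 72 genes and again 0 calls. The smallest adjusted p over the edgeR and limma alternatives ran from 0.0526 to 0.183, and the members at an unadjusted p under 0.05 from 20 to 34. Apart from limma, the share of all genes at that unadjusted p in the alternatives is not given here. Over all genes, calls ran from 0 (without MCT replicate 4, or SEFA-6179 replicate 5) to 53 (without SEFA-6179 replicate 3) when 1 library was left out, 250 in DESeq2, 62 in limma, 44 without a filter, 6 with the EIF1AY covariate and 1 without MCT replicate 5 and SEFA-6179 replicate 4 together, against 30.

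The replicate block over replicates 1 to 5 gave 8 calls over all genes and 0 members, against 40 and 0 in the same libraries with no replicate block. Same-numbered libraries had correlations of deviations of -0.058, 0.060, 0.20, -0.15 and -0.004, so the numbers are not taken as pairs.

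The count of member ratios past the threshold was 0, 1 with a prior count of 5 (ENSSSCG00000051428), 1 with the replicate block (ENSSSCG00000050649), and 0 to 1 with 1 library left out (1 without MCT replicate 6, where it was ENSSSCG00000050649, and 1 without SEFA-6179 replicate 3, where it was ENSSSCG00000051428). The genes whose groups do not overlap numbered 4, and 4 to 8 with 1 library left out (7 without MCT replicate 6, and 8 when SEFA-6179 replicate 3 was left out; these fits were added after seeing the data). Over all genes, the share without overlap was 1.49% with all libraries, 2.85% without MCT replicate 6 and 3.17% when SEFA-6179 replicate 3 was left out, against 2.72%, 4.76% and 5.44% of the 147. Each of the genes without overlap in all libraries reached the count minimum in 1 group only, so the shares are not independent of the choice of genes.

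Of the 28 named genes, 22 kept the sign of their log2 difference in every alternative that gave a value and 6 did not. The X pair ENSSSCG00000044599 and ENSSSCG00000049776 had no value without MCT replicate 2 or MCT replicate 5, where they did not pass the filter, so 19 alternatives stand behind them and 21 behind each of the others. The gap in the share of counts of the other 146 genes, SEFA-6179 minus MCT, went from -0.054 to 0.00024 percentage points without ENSSSCG00000048719 and the 4 rows on contigs with rRNA rows. Those rows were picked after their values were seen. ENSSSCG00000042722 was 0.0025 without MCT replicate 3, ENSSSCG00000043563 0.026 without MCT replicate 5 and SEFA-6179 replicate 4, TMEM80 -0.028 when MCT replicate 2 was left out, and LYRM2 -0.035 without SEFA-6179 replicate 5. TBCC was 0.089 in limma, 0.063 with the replicate block, 0.012 in those libraries without it, 0.11 without both libraries above, 0.098 without MCT replicate 5 and 0.012 without MCT replicate 6. TMEM18 was -0.047 and -0.014 without SEFA-6179 replicates 2 and 4 in turn and -0.065 without MCT replicate 2. With 1 library left out, the range was -0.87 to 0.0025 for ENSSSCG00000042722, -0.028 to 0.27 for TMEM80, -0.035 to 0.30 for LYRM2, -0.14 to 0.098 for TBCC and -0.065 to 0.12 for TMEM18. The cause was not tested.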
